A study of Mus musculus with 6 samples.

Results

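The genes described here are 10 identity markers of alveolar macrophages, the phagocytes that live in the air spaces of the lung. They were chosen by symbol, and all 10 (Car4, Krt79, Krt19, Plet1, Ear1, Ear2, Chil3, Siglecf, Cd2 and Atp6v0d2) were among the 11789 genes of the expression table. RNA-seq was measured in alveolar macrophages of C57BL/6 mice after an exposure that the labels write as BLM. All groups shared this strain, tissue and exposure. The 3 wild-type libraries (BLM1, BLM2 and BLM3) were compared with 3 libraries from A20 conditional knockout mice (A20-1, A20-3 and A20-4). A20 is a ubiquitin-editing inhibitor of NF-kB signalling, encoded by Tnfaip3. The labels name neither the Cre driver nor the cells in which A20 was deleted. The dose, the day of collection, the age of the mice, and whether a library came from a single animal or a pool are also not given there. P-values therefore measure the spread between these libraries, part of which may be technical.

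Alveolar macrophages arise from fetal monocytes that mature around birth under GM-CSF and TGF-beta signals, which switch on the nuclear receptor PPAR-gamma. The mature cell clears surfactant lipid and carries a set of genes that most other tissue macrophages lack. Recruited monocytes that enter the injured lung take up this set of genes only slowly. The 10 markers fall into 3 kinds. Surface and membrane proteins are Siglecf (a sialic acid binding lectin), Cd2 (an adhesion receptor also carried by lymphocytes), Plet1 (a membrane-anchored protein), Car4 (a carbonic anhydrase on the outer cell surface) and Atp6v0d2 (a subunit of the vacuolar proton pump). Secreted proteins are the ribonucleases Ear1 and Ear2 and the chitinase-like lectin Chil3, also called Ym1. The keratins Krt79 and Krt19 are intermediate filament proteins of epithelia that mouse alveolar macrophages also transcribe.

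FPKM counts fragments per length of transcript and per size of the library, so levels of different genes can be set side by side. Where 3 values of a group follow each other, they stand in the order A20-1, A20-3, A20-4 for knockout and BLM1, BLM2, BLM3 for wild type. The read depth behind the values is unknown, and log2 differences are knockout minus wild type of log2(FPKM + 1). Across the 10696 genes whose mean over the libraries reached 1 FPKM (the genes tested), Pearson correlations of log2(FPKM + 1) with BLM3 were 0.886 to 0.925, and those among the other 5 libraries were 0.953 to 0.982. These are correlations across genes, which are not independent replicates. BLM3 thus stood apart, and the marker comparisons are given with and without it. The targeted gene, Tnfaip3, had 8.44, 12.9 and 6.80 FPKM in knockout, against 4.47, 2.18 and 21.6 in wild type (limma adjusted p = 0.734). The difference was 0.46 ± 0.69 (SE), with 1.27 ± 0.31 when BLM3 was left out (limma adjusted p = 0.0797) and -0.14 when BLM2 was. Its level therefore does not check the knockout label, and FPKM over the whole gene could miss a deleted exon. Directions below are between libraries as labelled.

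Checked against the labelled cell type, all 10 markers were detected in all 6 libraries. Chil3 was the most abundant of them and ranked 3 among all 11789 genes by mean FPKM over the 6 libraries. Ear2 ranked 36, Atp6v0d2 76, Plet1 78, Car4 183, Ear1 294, Krt19 437 and Cd2 496. Siglecf and Krt79 were lower, with ranks of 1726 and 2736. In the knockout libraries the markers kept a clear order of levels. From the highest to the lowest mean it ran Chil3, Ear2, Plet1, Atp6v0d2, Car4, Ear1, Krt19, Cd2, Siglecf and Krt79. In 7 of the 9 pairs of neighbours in this order the 3 values did not overlap. Car4 and Ear1 overlapped, as did Siglecf and Krt79. In wild type the order by mean was Chil3, Ear2, Atp6v0d2, Plet1, Car4, Ear1, Cd2, Krt19, Siglecf and Krt79. Only Chil3 from Ear2 and Siglecf from Krt79 were apart there, 2 of 9 pairs. Without BLM3, 8 of the 9 pairs were apart. Overlap is less likely with 2 values a gene than with 3, so this count cannot be set against the others.

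**Figure D1:**
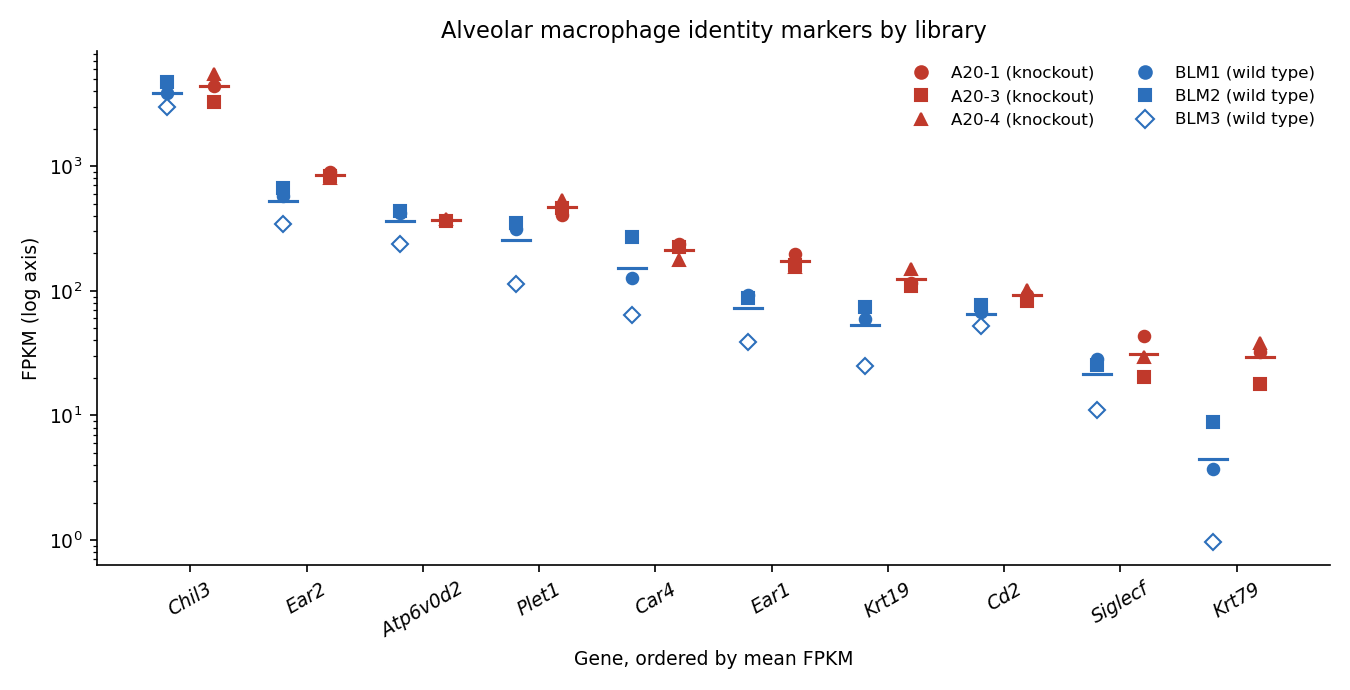
FPKM (log axis) of each of the 10 markers in each library, with genes ordered by mean FPKM, wild type in blue, knockout in red and short lines at the group means of 3 libraries. The open diamond, BLM3, is the lowest of the 6 libraries for every marker, and the 2 groups are apart for Ear2, Plet1, Ear1, Krt19, Cd2 and Krt79.

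No marker passed the threshold of the comparison between groups with 6 libraries. Of the 10 markers, 0 rose and 0 fell (limma, Benjamini-Hochberg adjusted p under 0.05), where 0.252% of all genes tested rose and 0.851% fell. At an unadjusted p under 0.05 there were 5 of 10 markers, and 2172 of the 10696 genes. All 10 had a positive log2 difference (knockout minus wild type), as did 52.9% of all genes. The median difference on the log2(FPKM + 1) scale was 0.72 for the markers and 0.02 for all genes tested. For 6 of the 10, every knockout library lay above every wild-type library, against 15.9% of all genes. These were Krt79, Krt19, Plet1, Ear1, Ear2 and Cd2. The groups overlapped for Car4, Chil3, Siglecf and Atp6v0d2. In bulk RNA, a larger share of alveolar macrophages and more marker RNA per cell cannot be told apart.

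Without BLM3, Krt79, Krt19 and Ear1 rose and no marker fell, so that 3 of 10 were called where 1.35% of all genes rose and 2.5% fell. The median difference of the markers was then 0.39, against 0.03 for all genes. Positive differences were left in 8 of 10 markers and in 54.1% of genes. The same 6 markers had knockout values above BLM1 and BLM2 (23.5% of all genes), as they must when they do so with 6 libraries. Atp6v0d2 took the other direction, with every knockout library below BLM1 and BLM2 (19.6% of all genes). With limma array weights, which give libraries that stand apart less weight, 5 of 10 markers were called as rises, namely Krt79, Krt19, Ear1, Ear2 and Cd2. That setting called 8.81% of all genes as rises and 9.27% as falls.

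**Figure D2:**
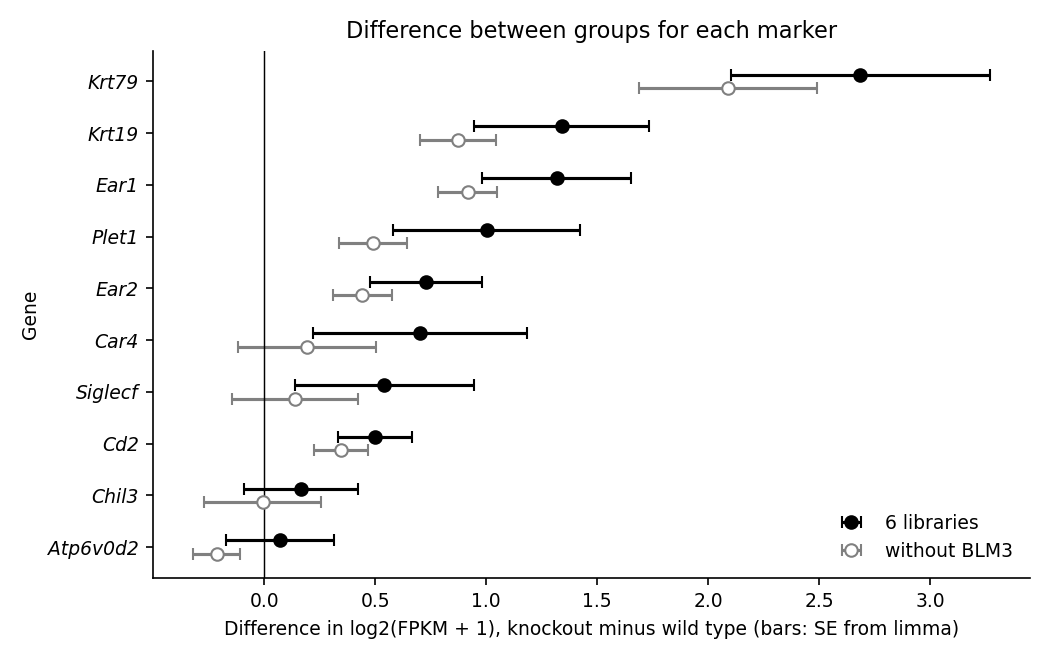
Difference in log2(FPKM + 1) between knockout and wild type for each marker, with bars for the limma standard error, from 6 libraries (black) and without BLM3 (grey, open). Krt79 has the largest difference in both, and leaving out BLM3 lowers the difference of all 10 markers, with Atp6v0d2 and Chil3 passing below 0.

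With 6 libraries, Krt79 had the largest difference between groups of the markers. Krt19 and Ear1 followed with nearly the same log2 difference (1.34 and 1.32). Krt79 (ENSMUSG00000061397.7, GRCm38 chromosome 15, 101929332 to 101940324, minus strand) encodes a type II keratin. It had 32.2, 17.8 and 37.9 FPKM in the knockout libraries, against 3.69, 8.84 and 0.972 in wild type. Every knockout library lay above every wild-type library, and the lowest knockout value was in A20-3. The means were 29.3 ± 10.4 and 4.50 ± 3.997 FPKM (SD, n = 3 each), a ratio of 6.50, or 4.67 without BLM3. The log2 difference was 2.68 ± 0.58 (SE, limma adjusted p = 0.0889), and 2.09 ± 0.40 without BLM3 (adjusted p = 0.0462).

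Krt19 (ENSMUSG00000020911.14, GRCm38 chromosome 11, 100140810 to 100148665, minus strand) encodes a type I keratin common in simple epithelia. Its FPKM was 114.6, 109.4 and 149.7 in knockout. In wild type it was 59.8, 74.8 and 24.7, below every knockout library. The group means were 124.6 ± 21.9 in knockout and 53.1 ± 25.7 in wild type (SD, n = 3). The log2 difference was 1.34 ± 0.40 (SE, limma adjusted p = 0.143), or 0.87 ± 0.17 without BLM3 (adjusted p = 0.0482).

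Other keratins went the opposite way or were near the limit of the table. Of 11 keratin genes listed and 8 tested, the 2 markers and 1 other (Krt15, named for completing the count) had positive differences and 5 had negative ones, with 0 called with 6 libraries and 6 at an unadjusted p under 0.05. Krt18, a keratin of simple epithelium, had 3.91, 5.61 and 5.08 FPKM in knockout, against 20.6, 17.2 and 10.02 in wild type (log2 difference -1.49 ± 0.26, SE, limma adjusted p = 0.0592). Its usual partner Krt8 had means of 4.68 and 11.4 FPKM in knockout and wild type. Krt83 had 0.754 ± 0.0756 and 2.97 ± 1.44 FPKM (SD, n = 3), which is close to 1. Without BLM3, Krt79 and Krt19 rose while Krt18, Krt8 and Krt83 fell. The keratin genes thus did not share a direction.

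The ribonucleases Ear1 and Ear2 belong to the eosinophil-associated branch of the RNase A family, a cluster of recent gene copies. Ear1 lies at GRCm38 chromosome 14, 43818765 to 43875517 on the minus strand (ENSMUSG00000072601.4). Ear2 lies at 44102654 to 44103534 of the same chromosome on the plus strand (ENSMUSG00000072596.4). Their start regions are shown because these windows of the 2 copies are nearly the same. Each line is a window of 300 bases in RefSeq (GRCm38.p6), from 250 bases before to 50 after a start site, read 5′ to 3′ on the strand of the gene. Ear1 is at chr14:43819590-43819889 and Ear2 at chr14:44102404-44102703, and capitals mark bases that the other window lacks or has otherwise.
Ear1: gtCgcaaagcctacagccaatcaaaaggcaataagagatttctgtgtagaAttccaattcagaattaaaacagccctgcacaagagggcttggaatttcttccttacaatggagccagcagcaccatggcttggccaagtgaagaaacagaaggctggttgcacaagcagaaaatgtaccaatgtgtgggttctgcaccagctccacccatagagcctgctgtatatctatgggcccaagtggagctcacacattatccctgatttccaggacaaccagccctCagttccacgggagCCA
Ear2: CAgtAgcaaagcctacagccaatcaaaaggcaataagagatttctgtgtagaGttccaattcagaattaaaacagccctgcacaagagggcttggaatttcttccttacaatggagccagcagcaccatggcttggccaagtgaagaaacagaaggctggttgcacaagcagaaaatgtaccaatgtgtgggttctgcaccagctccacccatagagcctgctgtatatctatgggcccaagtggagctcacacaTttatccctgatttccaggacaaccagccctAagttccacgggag
Aligned with free ends, 294 of 297 paired bases were the same (99.0%), and 6 bases of each window were not shared. The Ear1 window starts inside the span that the table gives for Ear1, since GENCODE M21 places the 5′ end of that gene further upstream.

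The transcripts were alike only in part. Of the distinct 50-base stretches in the GENCODE M21 coding transcripts of Ear1, 57.4% also occurred in a transcript of another gene, as did 41.5% of those of Ear2. The span of Ear1 overlaps 4 other annotated genes, among them the pseudogenes Ear-ps9 and Ear-ps12, and Ear2 overlaps the lincRNA Gm49101. How fragments that fit several copies were assigned is not given in the sources used here, so the FPKM of each copy is uncertain. Chil3 shared 28.5% of its stretches, mostly with Chil4 and Gm6522, and the other 7 markers shared at most 0.790%.

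Ear1 had 198.3, 161.2 and 156.1 FPKM in knockout. In wild type it had 91.8, 88.3 and 38.5, so the groups did not overlap. The means were 171.9 ± 23.0 and 72.9 ± 29.8 (SD, n = 3), a ratio of 2.36, and the log2 difference was 1.32 ± 0.34 (SE, limma adjusted p = 0.113). Without BLM3 it was 0.92 ± 0.13 (adjusted p = 0.0248), the smallest adjusted p of the 10 markers in that fit.

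Ear2 had 893, 839 and 805 FPKM in knockout. Its wild-type values were 578, 669 and 341, again all below the knockout libraries. The difference was smaller than that of Ear1, at 0.73 ± 0.25 (SE, limma adjusted p = 0.184), or 0.44 ± 0.13 without BLM3 (adjusted p = 0.119). The ratio of Ear2 to Ear1 within a library, looked at after the values were seen and not tested, was 4.50, 5.21 and 5.16 in the knockout libraries and 6.29, 7.57 and 8.86 in wild type. These ratios did not overlap between groups, with the 2 copies as the table counts them. Of the other ratios formed, Krt19 to Krt79 did not overlap either, while Plet1 to Siglecf and Chil3 to Ear2 did. The share of all gene pairs that would be apart was not computed.

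Of 9 RNase A family genes tested, Ear1 and Ear2 included, 0 were called. At an unadjusted p under 0.05 there were 5, both markers among them. Without BLM3, Ear1 rose and Rnase2b, chosen after its values were seen, fell (-0.65, limma adjusted p = 0.0453). Rnase6, an antimicrobial ribonuclease of phagocytes, had 6.59 ± 0.349 FPKM in knockout and 3.74 ± 0.617 in wild type (SD, n = 3, limma adjusted p = 0.0649). The copy Ear6 went the other way, with 1.51 ± 0.826 and 5.32 ± 2.36 FPKM (adjusted p = 0.118). Ear10, chosen after its values were seen, had 21.3 ± 6.44 and 10.7 ± 3.78 FPKM (adjusted p = 0.166).

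Chil3 (ENSMUSG00000040809.10, GRCm38 chromosome 3, 106147554 to 106167564, minus strand) was the most abundant marker, with little difference between groups. It had 4354, 3269 and 5471 FPKM in knockout. The wild-type values of 3856, 4765 and 2998 overlapped with these. The log2 difference was 0.17 ± 0.26 (SE, limma adjusted p = 0.743), and -0.01 ± 0.26 without BLM3 (adjusted p = 0.994). Of 3 genes of its family tested, Chil3 included, 0 were called, and 0 were at an unadjusted p under 0.05. The related lectin genes Chil4 and Chil1 were low, with knockout means of 7.86 and 2.03 FPKM and wild-type means of 4.73 and 11.2. In Chil1 the wild-type mean rested on BLM3, at 32.2 FPKM against at most 0.820 in BLM1 and BLM2.

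Plet1 (ENSMUSG00000032068.14, GRCm38 chromosome 9, 50494525 to 50505482, plus strand) had 403, 461 and 537 FPKM in knockout. It had 311, 349 and 113 in wild type. The groups did not overlap, but BLM3 lay further below BLM1 and BLM2 than these lay below A20-1, the lowest knockout library. The log2 difference was 1.00 ± 0.42 (SE, limma adjusted p = 0.248), and 0.49 ± 0.15 without BLM3 (adjusted p = 0.128). An antisense gene, Plet1os, overlaps Plet1, and whether fragments were counted by strand is not given in the sources used here.

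Cd2 (ENSMUSG00000027863.8, GRCm38 chromosome 3, 101275899 to 101287939, minus strand) varied least between libraries of the 6 markers whose groups were apart. It had 92.3, 83.0 and 101.3 FPKM in knockout, against 68.0, 76.5 and 52.0 in wild type. The log2 difference was 0.50 ± 0.17 (SE, limma adjusted p = 0.175), or 0.34 ± 0.12 without BLM3 (adjusted p = 0.160). T cells and NK cells also carry Cd2. The summed FPKM of 8 T cell markers was 97.8 to 112.0 in the knockout libraries, within the range of 65.8 to 213.5 in wild type, and its highest value was in BLM3. The 6 NK cell markers summed to 60.8 to 73.3 in knockout. In wild type they summed to 37.3, 44.4 and 110.6, so that only BLM3 lay above the knockout libraries. Without BLM3, Nkg7, a granule protein of NK and cytotoxic T cells, rose (0.73, limma adjusted p = 0.0274), and all 5 NK cell genes tested had a positive difference. The part of T cells and NK cells in the Cd2 values was not tested. Of the CD2 and SLAM receptor family, Cd2 included, 9 genes were tested and 0 called (3 at an unadjusted p under 0.05, Cd2 among them). Slamf7 had the smallest p there, with 17.1 ± 2.75 FPKM in knockout and 31.2 ± 3.32 in wild type (SD, n = 3, limma adjusted p = 0.0592). Without BLM3, Slamf7 fell (-0.76, limma adjusted p = 0.0472).

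Siglecf (ENSMUSG00000039013.16, GRCm38 chromosome 7, 43351341 to 43359531, plus strand), the usual surface marker for sorting these cells, had 43.5, 20.5 and 29.2 FPKM in knockout. In wild type it had 28.6, 25.3 and 11.1. A20-3 lay below BLM1 and BLM2, so the groups overlapped (log2 difference 0.54 ± 0.40, SE, limma adjusted p = 0.479). Without BLM3 it was 0.14 ± 0.28 (adjusted p = 0.806). Eosinophils also carry Siglecf and Ear genes, and 0 of 5 eosinophil markers (Prg2, Prg3, Epx, Ccr3 and Il5ra) were among the listed genes. Each listed gene had a mean of at least 0.5001 FPKM in its higher group. Of 7 sialic acid binding lectins tested, 0 were called, with 1 at an unadjusted p under 0.05 (Siglecg, 0.711 ± 0.0999 FPKM in knockout and 2.82 ± 1.56 in wild type, limma adjusted p = 0.162).

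Car4 (ENSMUSG00000000805.18, GRCm38 chromosome 11, 84957786 to 84966044, plus strand) was the most variable marker within wild type after Krt79. It had 236, 225 and 178 FPKM in knockout. BLM2 had 269, the highest of all libraries, while BLM1 had 127 and BLM3 63.6. The log2 difference of 0.70 ± 0.48 (SE, limma adjusted p = 0.444) was 0.19 ± 0.31 without BLM3 (adjusted p = 0.747). Car13, the next most abundant carbonic anhydrase of the table's 9, had 5.32 ± 0.765 FPKM in knockout and 8.66 ± 0.852 in wild type (SD, n = 3). Of 6 carbonic anhydrases tested, Car4 included, 0 were called (3 at an unadjusted p under 0.05). Without BLM3, Car15 rose (0.78, limma adjusted p = 0.0318). Its means with 6 libraries were 1.86 and 0.825 FPKM in knockout and wild type.

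Atp6v0d2 (ENSMUSG00000028238.6, GRCm38 chromosome 4, 19876841 to 19922605, minus strand) had nearly equal values in the knockout libraries, at 369, 363 and 377 FPKM. It had 421 and 437 in BLM1 and BLM2, above every knockout library, and 237 in BLM3, below all of them. The log2 difference was 0.07 ± 0.24 (SE, limma adjusted p = 0.888) and changed sign to -0.21 ± 0.11 without BLM3 (adjusted p = 0.281). Its counterpart subunit Atp6v0d1, chosen after its values were seen, had 136.9 ± 4.05 and 131.1 ± 10.7 FPKM in knockout and wild type (SD, n = 3). Of 19 proton pump genes tested, 0 were called (5 at an unadjusted p under 0.05), 13 had a negative difference and the median was -0.12. The smallest p belonged to Atp6v1e1, with 52.8 ± 1.33 and 67.0 ± 2.38 FPKM (limma adjusted p = 0.122).

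The markers were next set against each other within each library, as the log2 FPKM of a marker minus the median of the 10 in that library. This removes whatever raises or lowers all of them together, and was looked at after the values were seen, with no test. The median itself was 7.38 to 7.76 (log2 FPKM) in the knockout libraries and 5.85 to 7.27 in wild type. Krt79 stood -3.42 to -2.14 from it in knockout and -5.89 to -4.12 in wild type, so its groups stayed apart. Atp6v0d2 stood 0.77 to 1.18 above it in knockout and 1.504 to 2.04 in wild type, apart in the other direction. The groups overlapped for the other 8 markers, among them Krt19, Ear1, Plet1, Ear2 and Cd2, whose FPKM did not overlap. The median lay midway between Car4 and Ear1 in every library but BLM3, where it lay midway between Car4 and Cd2. Outside BLM3, the relative values of Ear1 and Car4 thus mirror each other, and the overlap of Ear1 depends on the spread of Car4. That overlap does not show that Ear1 moved with the other markers. Set against the same medians, 0.309% of all genes were higher and 49.9% lower in every knockout library than in every wild-type library. These shares are uneven because the marker median itself was higher in each knockout library.

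**Figure D3:**
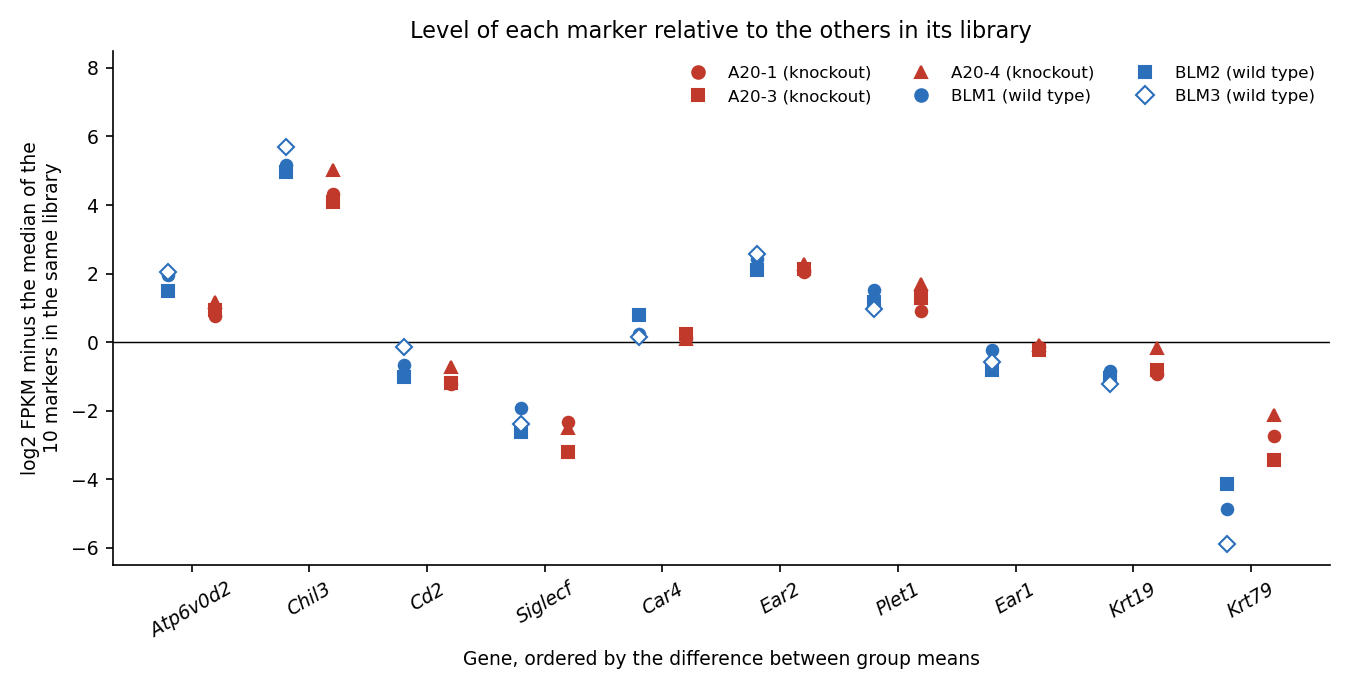
The log2 FPKM of each marker minus the median of the 10 markers in the same library, ordered by the difference between the group means, with wild type in blue and knockout in red. Krt79 is higher and Atp6v0d2 lower in every knockout library than in every wild-type library, and the groups overlap for the other 8.

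In BLM3 all 10 markers were at their lowest of the 6 libraries, which held for 27.6% of all genes tested. Its levels were 15.5% (Krt79) to 71.9% (Cd2) of the mean of BLM1 and BLM2. The median over the markers was 41.9%, and over all genes tested it was 100.5%. Car4 was at 32.1%, Plet1 at 34.3%, Krt19 at 36.7%, Siglecf at 41.1%, Ear1 at 42.8%, Ear2 at 54.7%, Atp6v0d2 at 55.1% and Chil3 at 69.6%.

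Markers of other cell types also differed between libraries. The summed FPKM of 7 neutrophil markers was 2770 in BLM3. It was 139 in BLM1, 149 in BLM2 and 82.9 to 129.1 in knockout. S100a9, the highest of them, had 1535 FPKM in BLM3, while 24.8 was the most in any other library. Monocyte and recruited macrophage genes summed to 1670 in BLM3, 1197 and 1263 in BLM1 and BLM2, and 346 to 470 in knockout, so this list was lower in every knockout library. Of 13 gene identifiers tested, 4 fell, among them the complement genes C1qa, C1qb and C1qc, and 0 rose, with 8 at an unadjusted p under 0.05. C1qb was the highest of the list, with 119.3 ± 28.6 FPKM in knockout and 467.8 ± 22.0 in wild type (SD, n = 3, limma adjusted p = 0.0134). The calls of the C1q genes were lost without A20-3 (adjusted p of 0.0943 to 0.0946) and without BLM1 (0.0661 to 0.0763). The part of these cells in the marker values was not tested.

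Epithelial markers were higher in knockout as a sum, 310.8 to 398.3 FPKM against 79.9 to 221.4 in wild type, and lowest in BLM3. The most abundant member by mean was Scgb1a1, the club cell secretory protein, with 291.5, 216.8 and 111.6 FPKM in knockout against 66.6, 111.4 and 23.1 in wild type. The surfactant gene Sftpc, chosen after its values were seen, had 37.5, 94.6 and 111.9 FPKM in knockout against 41.4, 27.4 and 12.7. Scgb1a1 and Sftpc made up most of the sum in every knockout library. The epithelial keratins Krt8, Krt18 and Krt7 had negative differences, opposite to Krt19. So did Nkx2-1 (means of 0.723 and 1.89 FPKM in knockout and wild type) and Cldn18 (2.09 and 2.66). Both were chosen after their values were seen. In all, 7 of the epithelial genes tested had a positive difference and 5 a negative one. Of 12 epithelial genes tested, 0 were called (7 at an unadjusted p under 0.05), and the median difference was 0.31. Without BLM3 the median was -0.01, and 2 genes fell (Krt8 and Krt18), while the sums of 210.9 in BLM1 and 221.4 in BLM2 were still below every knockout library. Whether epithelial RNA has a part in the Krt19 or Krt79 values was not tested. B cell markers summed to 11.6 to 20.1 in knockout and to 84.8, 10.6 and 78.1 in wild type. Dendritic cell markers summed to 34.4 to 43.5 in knockout and 52.1 to 81.6 in wild type. In the T cell, NK cell, B cell, neutrophil and dendritic cell lists 0 genes were called, with 0, 0, 0, 1 and 2 genes at an unadjusted p under 0.05. Without BLM3, 1 NK cell gene rose (Nkg7), 1 neutrophil gene fell (S100a8), 3 dendritic cell genes fell (Xcr1, Clec9a and Flt3), and 0 T cell and 0 B cell genes were called. Flt3 was chosen after its values were seen.

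**Figure D4:**
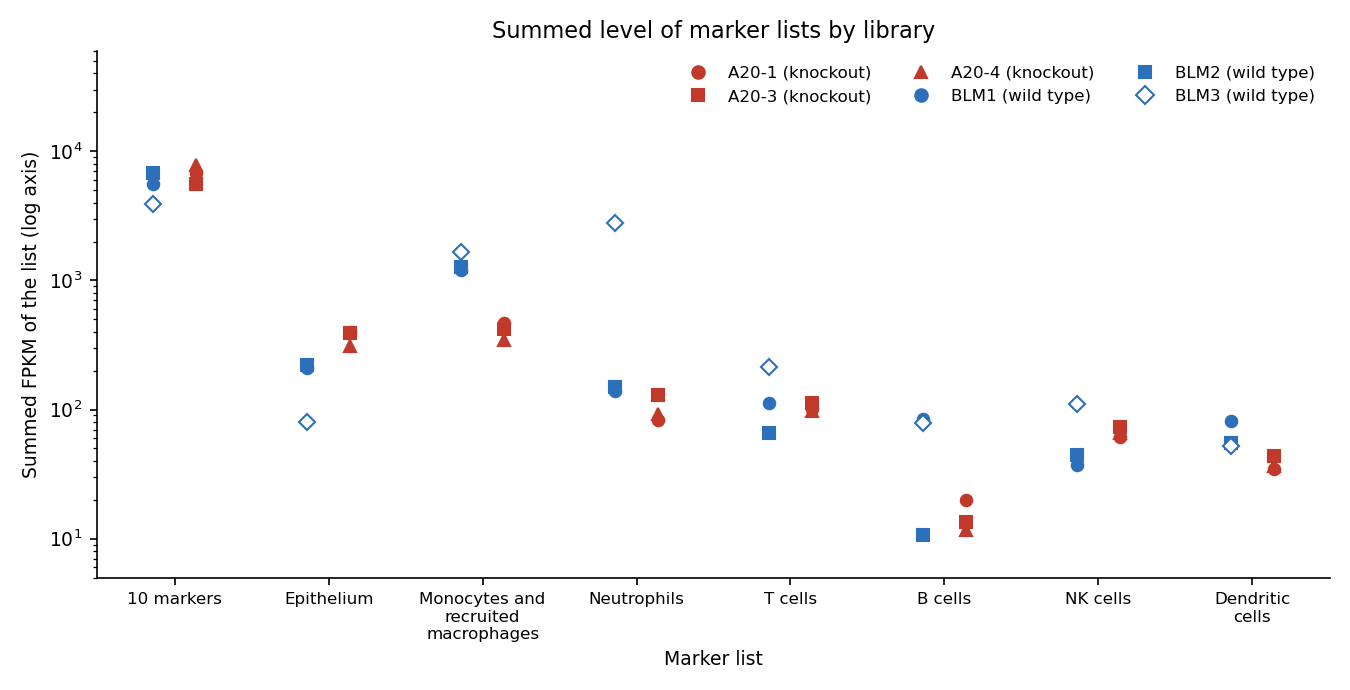
Summed FPKM (log axis) of each marker list in each library, with wild type in blue and knockout in red. BLM3 (open diamond) has the highest neutrophil sum and the lowest sums of the 10 markers and of the epithelial list, and the monocyte list is lower in all knockout libraries.

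Other genes typical of resident alveolar macrophages did not share one direction. Of 19 tested, 1 fell (Marco) and 0 rose with 6 libraries, 10 were at an unadjusted p under 0.05, 13 had a positive difference and the median was 0.33. Without BLM3, 3 rose and 3 fell, and the median was 0.07. Those that rose were Cidec, a lipid droplet protein, Fabp1, a fatty acid binding protein, and Kazald1. Those that fell were Marco, a scavenger receptor, Ctsk, a cathepsin, and Lpl, lipoprotein lipase. Fabp1 and Lpl were chosen after their values were seen. Cidec had 37.5, 31.0 and 42.1 FPKM in knockout against 6.02, 12.7 and 2.24 in wild type. Fabp1 had 26.0, 25.0 and 33.7 against 8.62, 12.8 and 3.60.

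Marco had 8.15, 5.02 and 12.1 FPKM in knockout against 33.2, 37.3 and 26.1 in wild type (log2 difference -1.87 ± 0.29, SE, limma adjusted p = 0.0466). Leaving out any library but BLM3 ended this call (adjusted p of 0.0765 to 0.148), as did a pseudocount of 0.1 (0.0511), TPM (0.0527) and quantile normalization (0.0521). Ctsk had 366 ± 40.0 in knockout and 686 ± 147 in wild type (SD, n = 3, limma adjusted p = 0.0889). Differences were negative with 6 libraries in 6 of the 19, while all 10 markers were positive.

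**Figure D5:**
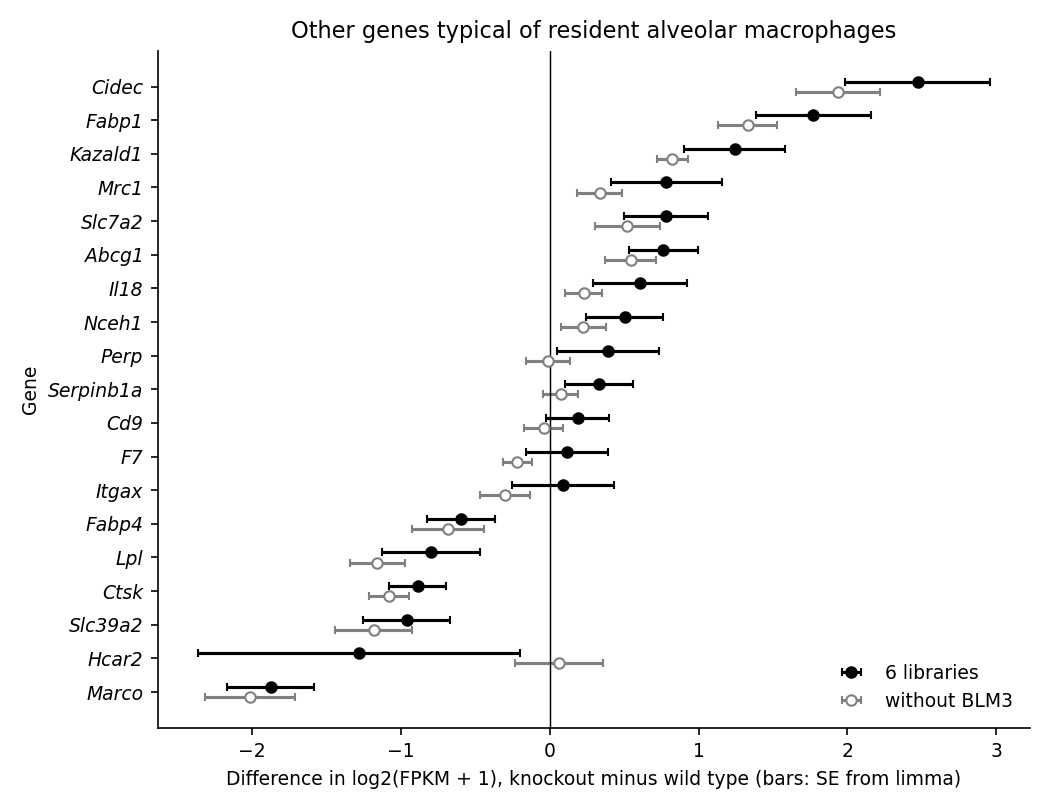
Difference in log2(FPKM + 1) between knockout and wild type for 19 other genes typical of alveolar macrophages, with bars for the limma standard error, from 6 libraries (black) and without BLM3 (grey, open). Cidec has the highest and Marco the lowest value, and the genes lie on both sides of 0.

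Receptors and transcription factors chosen for the alveolar macrophage programme were tested as a further list. Of 12 tested, 0 were called with 6 libraries (4 at an unadjusted p under 0.05), 10 had a positive difference and the median was 0.26. Without BLM3, 7 were positive and the median was 0.10. Csf2rb, the shared signalling chain of the GM-CSF receptor, had 187.3, 186.4 and 188.7 FPKM in knockout against 145.7, 160.1 and 129.2 in wild type (limma adjusted p = 0.152). Rxra, the partner of PPAR-gamma, had 67.2, 66.4 and 69.1 against 41.8, 48.0 and 13.8, and rose without BLM3 (0.58, adjusted p = 0.0371). Cebpb, a transcription factor needed for alveolar macrophages, had 437 ± 110 and 279 ± 54.5 FPKM (SD, n = 3, limma adjusted p = 0.202). Pparg itself, chosen after its values were seen, had 45.2, 42.5 and 36.6 FPKM in knockout against 29.5, 32.2 and 13.4 in wild type (adjusted p = 0.230). Every knockout library lay above every wild-type library for 5 of the 12 (Csf2rb, Rxra, Cebpb, Pparg and Csf2rb2), against 15.9% of all genes. Every one lay below for 1 of the 12, Bhlhe40, against 13.1% of all genes. Bhlhe40 had 62.7, 60.3 and 47.7 FPKM in knockout and 65.0, 64.0 and 88.6 in wild type (limma adjusted p = 0.321). It and Csf2rb2 were chosen after their values were seen. In Csf2rb2 the groups lay close, at 73.3, 72.4 and 71.9 FPKM in knockout against 68.8, 69.8 and 69.1 in wild type. Its log2 difference was 0.07 (limma adjusted p = 0.700). The groups of Csf2ra, which binds GM-CSF (chosen after its values were seen), overlapped, with a log2 difference of 0.05.

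Genes with the most similar profile over the 6 libraries were found by the root mean square distance between log2(FPKM + 1) profiles, each centred on its own mean. This was done for the 7 markers whose SD on that scale was over 0.5. The 10 markers themselves, predicted genes and clone names, mitochondrial genes and antigen receptor segments were left out. That left 10360 candidates, so a marker could not be named as nearest to another marker. Krt79 was nearest to Cidec (distance 0.23) and then to Gal, the neuropeptide galanin (0.52). Krt19 was nearest to Kazald1 (0.14) and Sec14l2 (0.14), and Ear1 to Cyb561a3 (0.16) and again Kazald1 (0.17). Plet1 was nearest to Orai1 (0.11) and Mcam (0.12), and Ear2 to Bcar3 (0.06) and Bmf (0.09). Car4 was nearest to Tcf7l2 (0.13) and H2-DMb1 (0.24), and Siglecf to Tlr8 (0.12) and Itgad (0.13). The distances describe the profiles over these 6 libraries and nothing more.

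Start regions were in the RefSeq table for 7 of the 10 markers (Car4, Chil3, Ear1, Ear2, Krt79, Plet1 and Siglecf). Both strands of each 300-base window were searched for GAGGAA (the core bound by PU.1, encoded by Spi1), the direct repeat bound by PPAR-gamma with RXR (AGGTCA in 2 copies, 1 base apart), TTCNNNGAA (bound by STAT5, which acts below the GM-CSF receptor), TGANTCA (AP-1) and TATAAA (the TATA box). Chil3 and Plet1 are shown because they held the most of these motifs. Each held the letters TATAAA, beside a STAT5 match in Chil3 and an AP-1 match in Plet1. Capitals mark the matches. Chil3 is at chr3:106167515-106167814 on the minus strand and Plet1 at chr9:50494275-50494574 on the plus strand (GRCm38.p6, 5′ to 3′).
Chil3: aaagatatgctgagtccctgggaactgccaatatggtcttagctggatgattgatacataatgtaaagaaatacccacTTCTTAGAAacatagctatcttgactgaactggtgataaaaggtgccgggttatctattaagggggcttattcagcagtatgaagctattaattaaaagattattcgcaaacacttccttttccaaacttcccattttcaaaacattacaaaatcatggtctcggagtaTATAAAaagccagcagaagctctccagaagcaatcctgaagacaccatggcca
Plet1: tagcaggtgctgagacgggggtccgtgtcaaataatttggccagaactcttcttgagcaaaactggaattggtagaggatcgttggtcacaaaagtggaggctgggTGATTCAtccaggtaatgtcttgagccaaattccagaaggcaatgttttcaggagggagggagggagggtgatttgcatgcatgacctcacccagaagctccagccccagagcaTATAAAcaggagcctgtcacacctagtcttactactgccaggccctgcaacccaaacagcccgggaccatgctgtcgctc
TATAAA was in 3 of the 7 windows (Car4, Chil3 and Plet1) and in 13.6% of all 32851 windows of the table. It began at base 221 of the window in Plet1, at base 248 in Chil3, where it runs across the start site, and at base 293 in Car4, past the start site. The STAT5 letters were in 1 of 7 (8.30% of all), those of AP-1 in 1 of 7 (7.81%), and the PU.1 core in 1 of 7, Siglecf (28.3%). The PPAR-gamma repeat was in 0 of 7 and in 0.0396% of all. Ear1, Ear2 and Krt79 held none of the 5 motifs in this window. A match is a description of letters only.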

How the data were processed

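Each of the 6 libraries came from 1 ug of total RNA and a stranded kit, per the labels' protocols. The values are FPKM, computed per gene by the authors, per the file headers. Per the submitters' processing notes, reads were placed on GRCm38. For the aligner, quantifier, annotation release and use of strand, the answer is not given in the sources used here. Columns named A20 were taken as knockout and those named only BLM as wild type. Their numbers are not the replicate numbers of the titles. The depth is unknown, so no counting interval is given.

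The 10696 of 11789 genes that averaged 1 FPKM or more were fitted as log2(FPKM + 1) with limma 3.58.1 in R 4.3.3 (eBayes with a trend, two-sided). P-values were adjusted by Benjamini-Hochberg over all genes tested, with a threshold of 0.05. On this scale, changes of low genes come out too small. The fit was tested on simulated data in which each gene had the same spread in all libraries. BLM3 stood apart in the measured data, so that test does not cover the calls given here. The 10 markers and 17 gene lists were chosen with earlier results of these data known. The lists are other alveolar macrophage genes, their regulators, 7 gene families of the markers and 8 other cell types. Counts of a gene family include its markers, unless they are called relatives. Named genes are the markers, Tnfaip3, in each list the called genes, the 3 of smallest p and the highest, and the 2 nearest profiles of variable markers. Others are marked. One gene that a list count includes is not reported here by name. Loci of all 10 markers had the same coordinates in GENCODE M21. Windows were aligned with Biopython 1.88.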

Additional observations from a re-analysis of the deposited data

How the results depend on the processing

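Of the values of the 10 markers under 14 alternatives, 128 kept their direction and their side of the threshold, 8 passed the threshold as rises (5 with array weights and 3 without BLM3) and 4 changed sign. Atp6v0d2 had -0.16 with array weights and ran from -0.21 to 0.23 over fits without 1 library, and Chil3 ran from -0.0125 (without A20-4) to 0.36, with -0.0056 without BLM3. Of other named genes, 756 values kept both, 53 passed the threshold, 20 lost it and 12 changed sign. Array weights changed the sign of Cd48 (-0.0009), Chil1 (0.60) and Siglec1 (-0.0142). Leaving out 1 library gave ranges across 0 for Cd48 (-0.0475 to 0.192), Cd9 (-0.0389 to 0.34), Chil1 (-1.40 to 0.72), Chil4 (-0.30 to 0.93), Klrb1c (-0.0322 to 0.20), Lck (-0.20 to 0.58), Prf1 (-0.0249 to 1.07), Siglec1 (-0.0426 to 0.55) and Tnfaip3 (-0.14 to 1.27). Over all genes, 27 rose and 91 fell. The counts were 17 and 58 (75 in all) with a minimum mean of 5 FPKM, 41 and 64 under TPM, and 942 and 992 (1934 in all) with array weights. Without 1 library they ran from 0 to 144 rises, 0 to 267 falls and 0 to 411 in all, lowest without A20-3 and highest without BLM3. Of the markers, 0 to 3 were called in those fits. Of 31 other alveolar macrophage genes and regulators, 1 was called, 0 with a pseudocount of 0.1, under TPM or with quantile normalization, 13 with array weights, and 0 to 7 without 1 library. Of 52 family relatives, 0 were called, 16 with array weights and 0 to 6 without 1 library. Of 56 markers of other cell types, 4 were called, 20 with array weights and 0 to 11 without 1 library. Causes were not tested, and a fit without 1 library has fewer values. No paired analysis was possible because the columns carry no replicate numbers of the sample titles. The unknown depth and 3 libraries a group limit the precision.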
